A study of Homo sapiens with 24 samples.

Results

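Boiled senescent medium was compared with the same kind of medium left intact. The comparison uses 6 of the 24 RNA-seq libraries of the series, chosen by their titles alone. In both groups the cells were OVCAR8 (spelled Ovcar8 in the labels), an established line of high grade serous ovarian cancer, kept in ultra-low attachment plates, whose surface prevents cells from adhering. The medium had been conditioned by cells driven into senescence with cisplatin, a DNA-crosslinking drug, and was mixed with RPMI, a standard culture medium, containing 5% serum at a ratio of 1 to 1. In 3 libraries the conditioned medium was used as collected (intact medium), and in 3 it was boiled first (boiled medium). The labels name neither the line that conditioned the medium nor the length of boiling, nor do they say whether debris was cleared afterwards. Values from 4 further groups of 3 libraries stand beside the comparison where needed: fresh medium, medium from vehicle-treated proliferating cells, and the fractions of senescent medium below 3 kDa (small fraction) and above 3 kDa (large fraction). Per the series' design text, the boiled and fractionated media were included because the part of the secretome that is not protein is little studied.

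Senescent cells stop dividing but stay metabolically active and release a mixture of cytokines, growth factors, proteases, lipids and metabolites, the senescence-associated secretory phenotype (SASP). Boiling unfolds most proteins and ends the activity of most enzymes and ligands, whereas many small metabolites and lipids and some heat-stable proteins can remain in solution. Conditioned medium also differs from fresh medium in what cells have consumed, such as glucose and amino acids, and boiling does not restore these.

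Total counts ran from 14718120 to 21956598 over the 24 libraries, from 15581070 to 16368352 with intact medium and from 16330543 to 21956598 with boiled medium. No replicate was a copy of another, but intact replicate 3 stood apart from intact replicates 1 and 2: the chi-square of its counts per degree of freedom was 6.19 and 6.16 against them, and 1.64 between those 2. Leaving it out gave 2001 genes higher and 2695 lower, near the full counts below. PAX8, MSLN and KRT7, markers of this tumour type, were detected in all 6 libraries, at 23.9 to 27.3, 164 to 188 and 62.1 to 96.4 FPKM (fragments per kilobase of gene, scaled to sequencing depth). Of the 12 tumour and epithelial markers listed, however, 5 stayed under 1 FPKM in all 6 libraries. MECOM and EMX2 had no counts, WT1 stayed below 0.475 FPKM, and SOX17 and MUC16 reached at most 0.1135 and 0.004312 FPKM. Of 17 markers of immune, endothelial, stromal and red cells, 11 stayed under 1 FPKM in all 6 libraries, among them PTPRC, CD3E and MS4A1, and 4 had no counts at all. Their summed level was 14.7 to 16.4 FPKM with intact and 16.1 to 18.3 FPKM with boiled medium. PDGFRB alone gave 7.90 to 9.58 FPKM. Of the 8 markers abundant enough to test, ACTA2, CD14, LUM and PECAM1 were higher and 2 lower with boiled medium. The higher ones numbered 1 without intact replicate 1 or boiled replicate 2, and 2 without intact replicate 3. The 4 that were higher reached at most 3.63 FPKM, and their part in the results was not tested.

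Between boiled and intact medium, 2156 of 19210 tested genes (11.2%) were higher and 2822 (14.7%) were lower with boiled medium at an adjusted p below 0.05. All tests on counts are edgeR quasi-likelihood tests with Benjamini-Hochberg adjustment over all tested genes, 3 libraries per group. Whether replicates were separate cultures is not stated, so the p values rest on differences between libraries that may be technical only. Standard errors (SE) were derived as the absolute log2 fold change over the square root of the F statistic and are approximate. Most changes were small: the median size of a called change was 0.365 on the log2 scale, and 68.4% of calls were below 0.5. A change beyond 1 on that scale was called for 293 genes that rose (1.53%, 166 of them protein-coding) and 164 that fell (0.854%, 105 of them protein-coding). The groups did not overlap in FPKM for 38.1% of all tested genes, called or not. They did not overlap for 4716 of the 4978 called genes, so separate groups add little to the call of a gene named below. Scaling by library totals in place of TMM factors turned the split of calls to 2832 higher and 2158 lower, while the median log2 fold change of all genes moved from 0.0023 to 0.053.

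**Figure D1:**
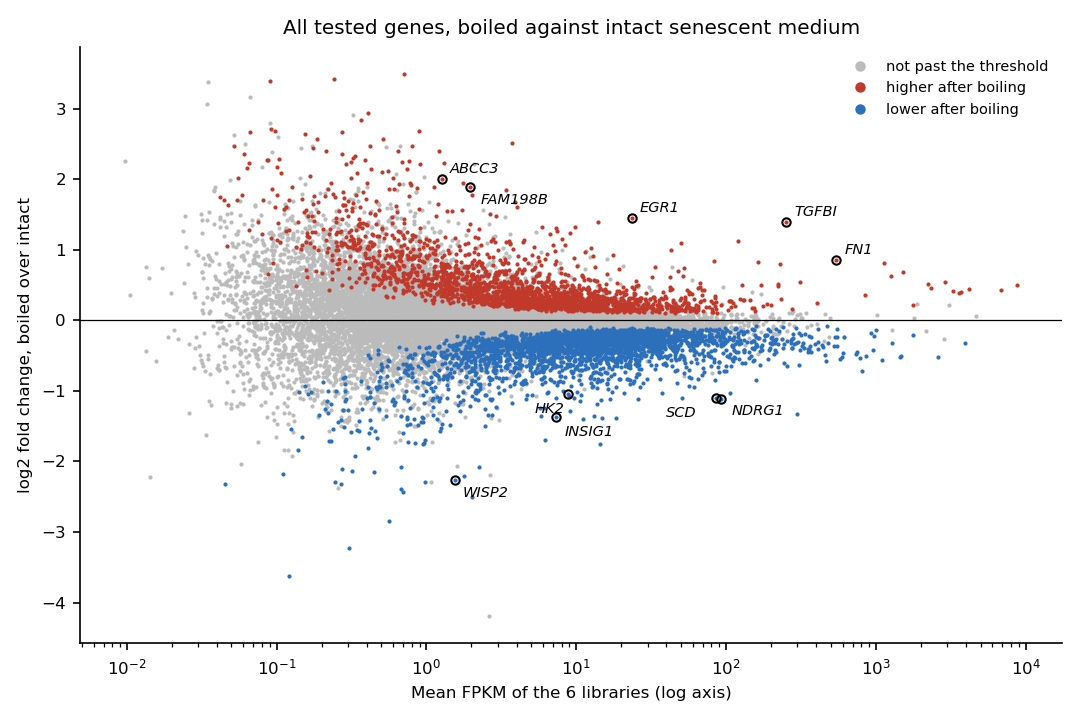
Each point is 1 of the tested genes, with the mean FPKM of the 6 libraries on a log axis and the log2 fold change of boiled over intact medium on the other; red and blue points passed an adjusted p of 0.05 and circles mark 10 named genes. TGFBI at 1.40 and FN1 at 0.85 lie high, and SCD and NDRG1, both at -1.11, lie low among genes of a high level.

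Genes were grouped into 48 lists of pathways, complexes and markers, and 960 of the 1042 different genes on them were abundant enough to be tested. Lists of lipid synthesis, glycolysis, cell division and ribosomal proteins held mostly genes that were lower with boiled medium. Lists of mitochondrially encoded, metallothionein, aryl hydrocarbon receptor and interferon-stimulated genes held mostly genes that were higher among those called.

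**Figure D2:**
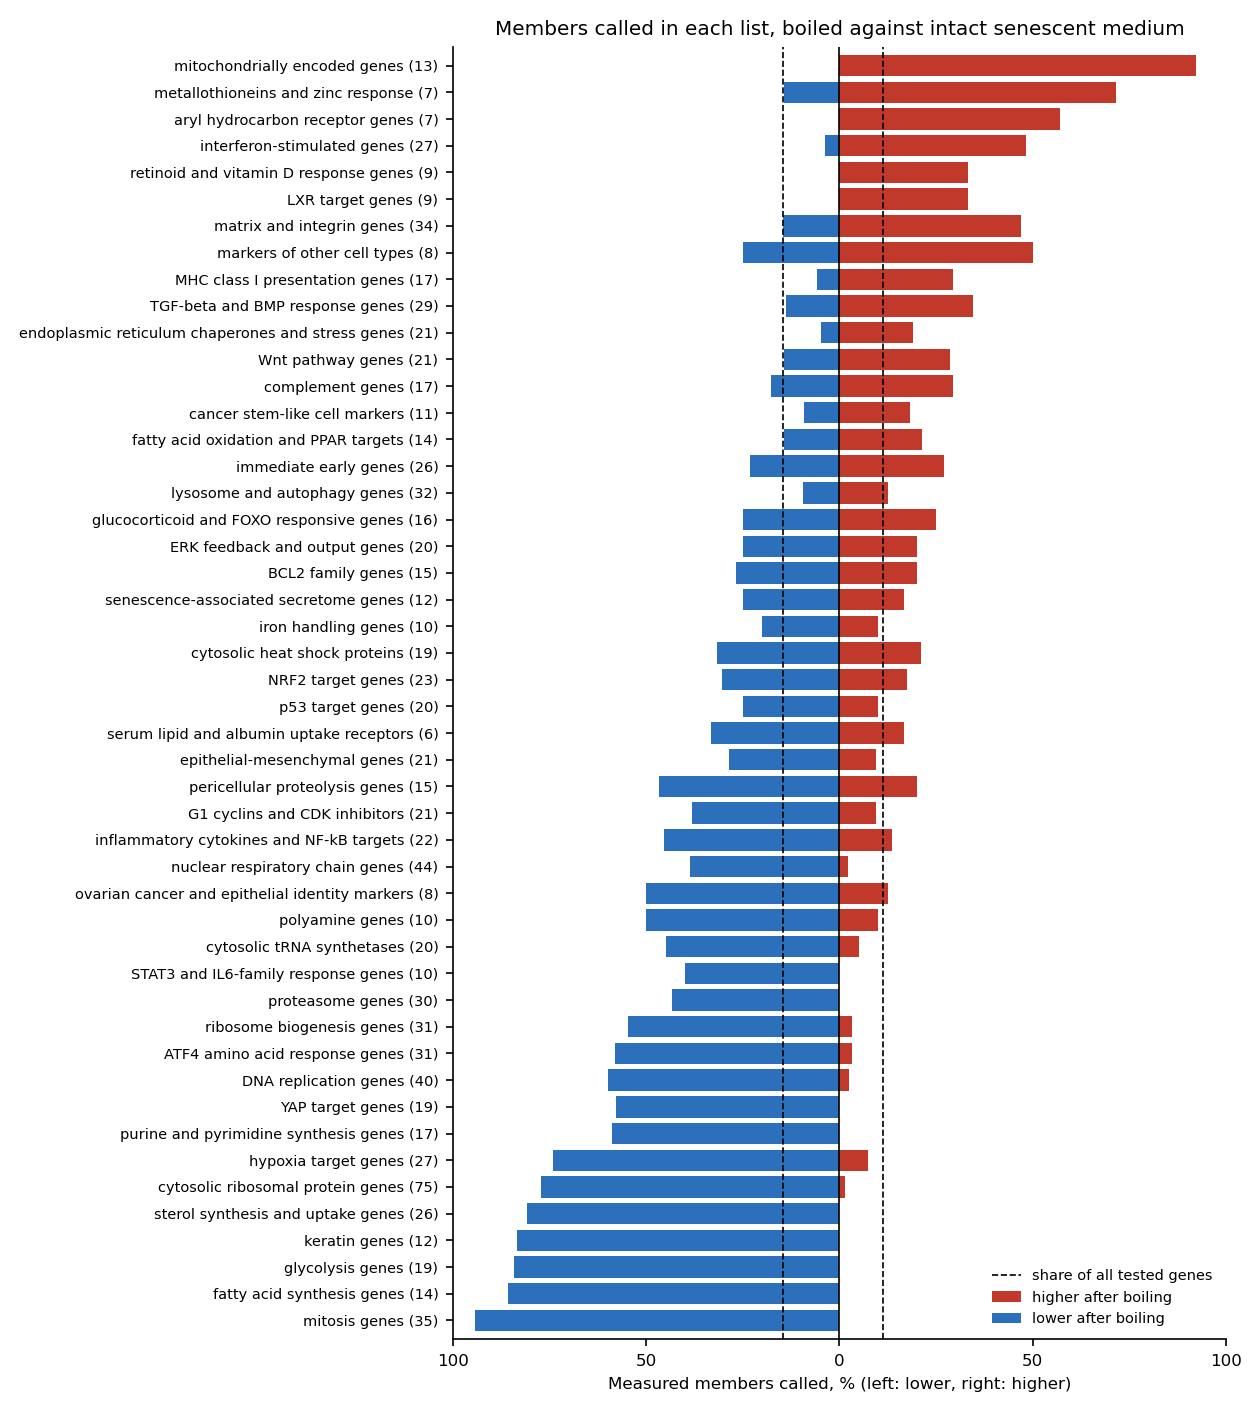
Bars give the percentage of each list's measured members (number in brackets) that were called higher (red, right) or lower (blue, left) with boiled medium, and the dashed lines give the 11.2% and 14.7% of all tested genes. The mitosis list reaches furthest to the left, with 33 of 35 members, and the mitochondrially encoded genes furthest to the right, with 12 of 13.

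Most genes of sterol synthesis and uptake fell. Cells sense the cholesterol of their membranes through SREBP factors, which are held in the endoplasmic reticulum by INSIG proteins when sterol is plentiful and otherwise switch on the enzymes of cholesterol synthesis. With boiled medium 21 of 26 measured sterol synthesis and uptake genes fell and 0 rose, with a median log2 fold change of -0.49, against 0.0023 for all genes tested. The decline covered 16 of 19 enzymes and 5 of 7 genes of uptake and sensing. With library totals in place of TMM factors 1 sterol gene was higher.

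INSIG1 (ENSG00000186480, chr7:155297776-155310235, plus strand; gene coordinates here and below are on GRCh38), the sensor that holds SREBP back, stood at 10.8, 10.2 and 10.7 FPKM with intact medium and 3.99, 3.92 and 4.35 with boiled medium (log2 fold change -1.38 ± 0.09, adjusted p = 7.13e-17). FDFT1, squalene synthase and the first enzyme committed to sterols, was at 13.7, 15.6 and 14.3 FPKM with intact medium and 7.47, 6.21 and 7.27 with boiled medium (log2 fold change -1.06 ± 0.07, adjusted p = 1.35e-16). IDI1, an isomerase of the mevalonate pathway, was at 28.5, 28.4 and 27.0 FPKM with intact medium and 13.9, 14.1 and 13.2 with boiled medium (log2 fold change -1.03 ± 0.06, adjusted p = 4.72e-17). In each of these genes every boiled library lay below every intact one, and the mean boiled level was below 0.5 times the intact mean.

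The promoters of SREBF2, the SREBP factor of the sterol branch, and of MVD, an enzyme of the mevalonate pathway, are printed because both genes fell and both hold CACCCCA, letters from within the sterol response element. SREBF2 was at 28.7, 27.6 and 28.3 FPKM with intact medium and 19.2, 20.8 and 20.5 with boiled medium (log2 fold change -0.49 ± 0.04, adjusted p = 4.65e-12). MVD was at 16.7, 16 and 15.4 FPKM with intact medium and 8.86, 8.92 and 10.01 with boiled medium (log2 fold change -0.79 ± 0.08, adjusted p = 4.43e-10). They were picked among the 6 sterol genes with the smallest p values after their sequences had been seen. Each sequence runs from 250 bases before to 50 bases after the RefSeq start on GRCh38.p14, 5′ to 3′ along the gene, with the motif or its reverse complement TGGGGTG in capitals.
SREBF2 promoter (chr22:41832855-41833154, plus strand): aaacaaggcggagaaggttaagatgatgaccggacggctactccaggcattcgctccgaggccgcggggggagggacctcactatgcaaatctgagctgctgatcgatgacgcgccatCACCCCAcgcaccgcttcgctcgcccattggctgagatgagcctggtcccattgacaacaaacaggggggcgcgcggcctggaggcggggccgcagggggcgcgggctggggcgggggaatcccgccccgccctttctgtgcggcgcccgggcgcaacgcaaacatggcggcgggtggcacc
MVD promoter (chr16:88663042-88663341, minus strand): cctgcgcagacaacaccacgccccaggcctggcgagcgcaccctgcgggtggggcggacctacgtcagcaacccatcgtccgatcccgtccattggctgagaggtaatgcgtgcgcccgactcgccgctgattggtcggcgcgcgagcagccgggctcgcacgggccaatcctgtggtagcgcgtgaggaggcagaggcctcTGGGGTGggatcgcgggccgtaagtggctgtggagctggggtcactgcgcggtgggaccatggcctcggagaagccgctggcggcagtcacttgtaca
On either strand, CACCCCA was found in 4 of the 19 sterol genes with a promoter in the RefSeq table (21.1%) and in 8.08% of all 35116 promoters. INSIG1, IDI1, DHCR7 and FDPS, which also fell, do not hold these letters in the same window. A match describes letters and is no evidence of binding.

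Fatty acid synthesis followed the same direction, with 12 of 14 enzymes lower, 0 higher and a median of -0.40. SCD, the desaturase that makes monounsaturated fatty acids, was at 119.6, 117 and 113 FPKM with intact medium and 54.4, 55.4 and 53.2 with boiled medium (log2 fold change -1.11 ± 0.04, adjusted p = 1.38e-26). FADS1, a desaturase of polyunsaturated fatty acids, was at 35.5, 35.8 and 33.7 FPKM with intact medium and 18.8, 18.1 and 18.02 with boiled medium (log2 fold change -0.94 ± 0.05, adjusted p = 7.72e-20), and its neighbour FADS2 at 12.9, 13.5 and 12.7 FPKM with intact medium and 8.05, 8.41 and 8.91 with boiled medium (log2 fold change -0.62 ± 0.05, adjusted p = 2.73e-13). These groups do not overlap. The gene spans of FADS1 and FADS2 overlap, and FADS2 also overlaps FEN1. Whether counted bases are shared was not tested for these or for the other overlapping genes named below. Without strand information in the sources used here, reads from shared bases cannot be assigned. LXR targets, which respond to oxysterols, did not mirror this: 3 of 9 rose and 0 fell, and the lipid carrier APOE rose from 74.4, 72.4 and 79.8 to 85.5, 86.3 and 96.1 FPKM (log2 fold change 0.24 ± 0.05, adjusted p = 6.62e-04). The cholesterol exporter ABCA1 was called as well (log2 fold change 0.23 ± 0.07, adjusted p = 0.00775), but lost the call without intact replicate 3 or boiled replicate 1 and under the GC and length correction (log2 fold change 0.12, adjusted p = 0.142).

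The boiled level of the sterol genes was also low beside the other media. Against the large fraction, where 4.46% of all genes were higher and 7.09% lower with boiled medium, 19 of 26 sterol genes were lower. Against fresh medium (14% higher and 13.9% lower over all genes) 19 were lower and 1 was higher. Against the small fraction (15.7% and 13.3%) the numbers were 11 and 2. Proliferative medium (10.4% and 9.5%) gave the fewest calls, with 5 lower and 0 higher. FDFT1 stood at 14.03 ± 0.575 FPKM (mean ± SD, n = 3) with the large fraction, 8.82 ± 0.602 with the small fraction, 11.2 ± 0.415 with fresh and 7.73 ± 0.0208 with proliferative medium, all above the boiled libraries. Between boiled and proliferative medium, however, FDFT1 did not pass the test (-0.145 ± 0.069, adjusted p = 0.139). INSIG1 with proliferative medium, at 4.78 ± 0.146 FPKM, was not told apart from the boiled level (-0.22 ± 0.09, adjusted p = 0.0787). These comparisons share the boiled libraries, and those of the next paragraphs share boiled or intact ones.

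**Figure D3:**
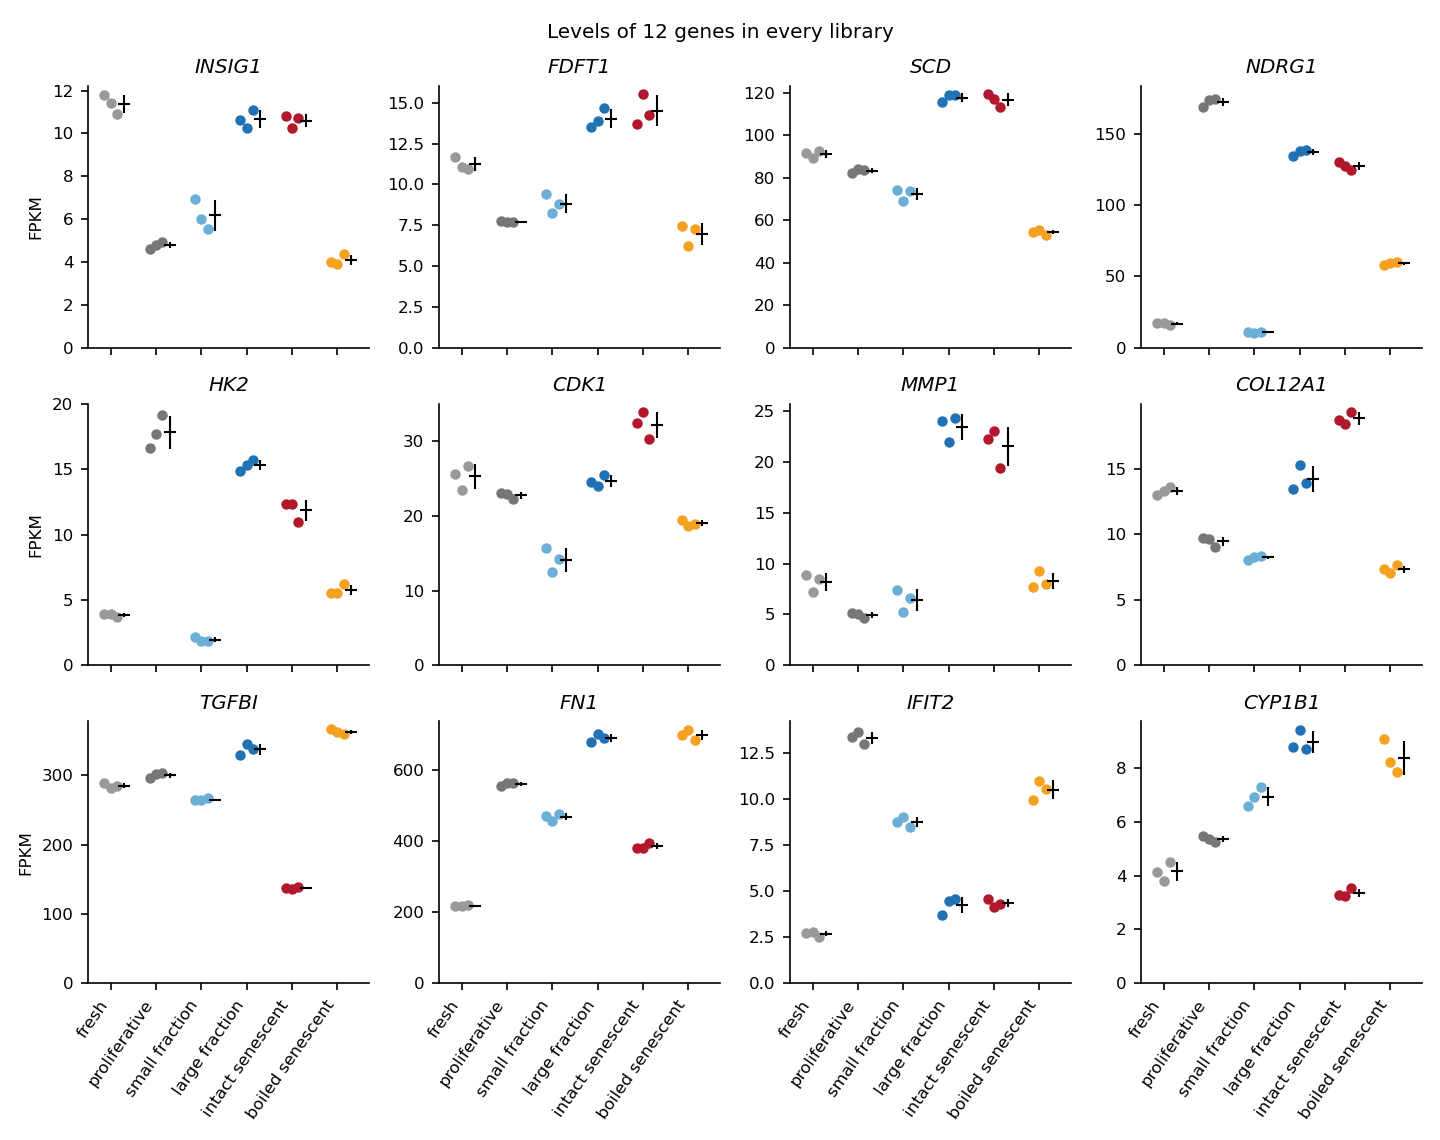
FPKM of 12 genes, on linear axes from 0, in the 3 libraries of each of 6 media (points), with the mean and SD beside them in black. INSIG1, FDFT1 and SCD are lowest with boiled medium, NDRG1 and HK2 lie between the small fraction and intact medium, and TGFBI is lowest with intact medium. For INSIG1 and FDFT1 the difference between boiled and proliferative medium did not pass the test.

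Hypoxia targets and glycolysis genes also declined together. The factor HIF is stabilised when oxygen or the enzymes that use it to mark HIF run short, and it raises glucose uptake, glycolysis and acid export. With boiled medium 20 of 27 hypoxia targets were lower and 2 higher (median -0.35). Of the glycolysis genes, 16 of 19 were lower and 0 higher (median -0.37), including 14 of 16 enzymes and 2 of 3 transporters.

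NDRG1, a stress-responsive gene widely used as a readout of hypoxia, was at 130.4, 127 and 124 FPKM with intact medium and 58.1, 59.2 and 60.1 with boiled medium (log2 fold change -1.11 ± 0.04, adjusted p = 8.51e-27). BNIP3, which directs mitochondria to autophagy, was at 74.3, 69.8 and 77.2 FPKM with intact medium and 38.6, 37.5 and 39.9 with boiled medium (log2 fold change -0.94 ± 0.04, adjusted p = 6.56e-21). DDIT4, an inhibitor of mTORC1 signalling that also belongs to the amino acid response, was at 16.8, 18.8 and 15.0 FPKM with intact medium and 8.88, 8.65 and 8.70 with boiled medium (log2 fold change -0.95 ± 0.10, adjusted p = 3.05e-08). None of these groups overlap. The acid-exporting enzyme CA9 was weak, at 0.955, 1.37 and 1.58 FPKM with intact medium and 0.342, 0.366 and 0.658 with boiled medium (log2 fold change -1.48 ± 0.40, adjusted p = 0.00427), and may share counts with the overlapping gene ARHGEF39. HK2, the hexokinase that starts glycolysis, was at 12.4, 12.3 and 10.9 FPKM with intact medium and 5.52, 5.52 and 6.23 with boiled medium (log2 fold change -1.05 ± 0.07, adjusted p = 7.51e-16). ENO2, an enolase, was at 127, 130.3 and 117 FPKM with intact medium and 73.8, 77.0 and 76.9 with boiled medium (log2 fold change -0.72 ± 0.07, adjusted p = 4.84e-08), and the glucose transporter SLC2A3 at 20.2, 20.1 and 20.4 FPKM with intact medium and 12.9, 12.9 and 12.8 with boiled medium (log2 fold change -0.66 ± 0.04, adjusted p = 9.32e-16). All boiled libraries lie below all intact ones in CA9, HK2, ENO2 and SLC2A3, with the widest spread relative to level in CA9. VEGFA, an angiogenic ligand also regulated by HIF, moved the other way, with 7.55, 7.65 and 6.25 FPKM with intact medium and 8.63, 8.70 and 9.62 with boiled medium (log2 fold change 0.33 ± 0.08, adjusted p = 0.00587).

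The HK2 and LDHA promoters are shown because both genes fell and hold ACGTG, the core of the hypoxia response element. LDHA, lactate dehydrogenase A, was at 305, 302 and 303 FPKM with intact medium and 244, 244 and 242 with boiled medium (log2 fold change -0.32 ± 0.03, adjusted p = 1.70e-11). They were picked like those above, and capitals mark ACGTG or its reverse complement CACGT. The palindrome CACGTG, also the letters of an E-box, holds both and counts as 2 matches.
HK2 promoter (chr2:74833877-74834176, plus strand): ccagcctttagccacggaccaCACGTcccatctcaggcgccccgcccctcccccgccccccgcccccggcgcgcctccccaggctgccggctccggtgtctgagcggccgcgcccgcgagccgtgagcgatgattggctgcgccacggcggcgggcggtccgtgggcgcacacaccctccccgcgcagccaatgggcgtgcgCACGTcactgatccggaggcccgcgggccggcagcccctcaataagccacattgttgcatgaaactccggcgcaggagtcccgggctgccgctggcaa
LDHA promoter (chr11:18394313-18394612, plus strand): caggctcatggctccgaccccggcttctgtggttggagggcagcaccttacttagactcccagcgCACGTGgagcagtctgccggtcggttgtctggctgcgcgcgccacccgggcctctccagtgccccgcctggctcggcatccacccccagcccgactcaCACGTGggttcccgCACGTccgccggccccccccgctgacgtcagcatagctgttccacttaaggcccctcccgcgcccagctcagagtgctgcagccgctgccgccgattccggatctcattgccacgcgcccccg
HK2 holds 2 matches and LDHA 5. The letters occurred in 8 of 18 glycolysis promoters (44.4%), in 12 of 23 hypoxia target promoters (52.2%) and in 21.4% of all promoters.

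The boiled level of these genes was intermediate. Of the 19 glycolysis genes, 18 were lower with boiled medium than with the large fraction and 18 lower than with proliferative medium, whereas 17 were higher than with the small fraction and 16 higher than with fresh medium. The hypoxia targets divided alike: of 27, 23 were lower than with the large fraction and 25 higher than with the small fraction. NDRG1 was at 10.6 ± 0.115 FPKM with the small fraction, 16.9 ± 0.760 with fresh medium, 137 ± 2.12 with the large fraction and 172 ± 2.88 with proliferative medium. HK2 was at 1.97 ± 0.168, 3.84 ± 0.1497, 15.3 ± 0.416 and 17.8 ± 1.255 FPKM in the same order. For both genes the boiled libraries lie above all libraries of fresh medium and the small fraction and below all others.

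Cell division genes fell as a group. Mitosis needs kinases such as CDK1 and AURKB, the spindle and the kinetochores, and its genes are switched on together late in the cell cycle. With boiled medium 33 of 35 mitosis genes fell and 0 rose, all 8 kinases among them, and the range over the 35 ran from -0.83 to -0.26 (median -0.57). DNA replication genes fell in 24 of 40 cases and rose in 1, with a smaller median of -0.24. In bulk RNA, fewer cells in division and less of these transcripts per cell cannot be told apart.

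CDK1, the kinase that drives entry into mitosis, was at 32.4, 33.9 and 30.3 FPKM with intact medium and 19.5, 18.7 and 18.9 with boiled medium (log2 fold change -0.76 ± 0.06, adjusted p = 1.09e-13). AURKB, the kinase of the chromosomal passenger complex, was at 26.5, 26.2 and 21.7 FPKM with intact medium and 14.7, 13.0 and 14.3 with boiled medium (log2 fold change -0.83 ± 0.08, adjusted p = 1.20e-11). CENPA, the histone that marks centromeres, was at 15.9, 15.98 and 15.7 FPKM with intact medium and 8.53, 9.69 and 8.89 with boiled medium (log2 fold change -0.82 ± 0.09, adjusted p = 4.93e-10), although some of its counts may belong to SLC35F6. HMMR, a spindle protein, was at 25.0, 22.0 and 27.7 FPKM with intact medium and 14.5, 13.9 and 13.8 with boiled medium (log2 fold change -0.83 ± 0.07, adjusted p = 8.50e-12). The groups are separate in all 4 genes. Among the replication genes, TK1, which salvages thymidine, was at 112, 111 and 103 FPKM with intact medium and 71.1, 71.4 and 73.8 with boiled medium (log2 fold change -0.60 ± 0.05, adjusted p = 2.66e-12) and ORC6, a subunit of the origin recognition complex, at 8.78, 9.02 and 8.54 FPKM with intact medium and 5.46, 4.97 and 6.28 with boiled medium (log2 fold change -0.65 ± 0.08, adjusted p = 1.14e-08). G1 regulators were mixed, with 8 of 21 lower and 2 higher (1 higher without boiled replicate 1 or 2), E2F1 at -0.52 ± 0.09 and the inhibitor CDKN1C at -0.57 ± 0.09 among the lower ones. The inhibitor CDKN2D was at 10.3, 9.31 and 5.99 FPKM with intact medium and 3.88, 3.99 and 4.66 with boiled medium (log2 fold change -1.02 ± 0.17, adjusted p = 1.02e-05), and its intact replicate 3 lies nearest to the boiled libraries.

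The promoters of ANLN and CDC20 are shown because these mitosis genes fell and hold TTTGAA, the letters of the cell cycle genes homology region. ANLN, a scaffold of the cleavage furrow, was at 64.9, 63.2 and 67.8 FPKM with intact medium and 41.0, 39.3 and 37.3 with boiled medium (log2 fold change -0.74 ± 0.05, adjusted p = 3.14e-16). CDC20, which activates the ligase that ends metaphase, was at 90.9, 89.2 and 88.6 FPKM with intact medium and 50.6, 53.5 and 57.7 with boiled medium (log2 fold change -0.73 ± 0.05, adjusted p = 1.42e-15). Selection was as above, and capitals mark TTTGAA or its reverse complement TTCAAA.
ANLN promoter (chr7:36389612-36389911, plus strand): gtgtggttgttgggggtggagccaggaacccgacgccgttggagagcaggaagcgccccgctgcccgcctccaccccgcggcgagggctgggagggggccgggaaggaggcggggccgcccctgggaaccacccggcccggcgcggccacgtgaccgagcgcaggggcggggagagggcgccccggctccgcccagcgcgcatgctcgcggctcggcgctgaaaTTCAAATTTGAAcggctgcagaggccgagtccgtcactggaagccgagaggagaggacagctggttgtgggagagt
CDC20 promoter (chr1:43358731-43359030, plus strand): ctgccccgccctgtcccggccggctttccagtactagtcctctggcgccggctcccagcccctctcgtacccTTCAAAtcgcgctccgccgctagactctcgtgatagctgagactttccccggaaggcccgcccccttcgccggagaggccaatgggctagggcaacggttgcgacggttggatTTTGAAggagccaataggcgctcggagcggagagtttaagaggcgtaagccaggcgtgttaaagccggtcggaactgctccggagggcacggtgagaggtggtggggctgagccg
In ANLN the letters occur once on each strand, directly joined, and CDC20 holds 1 match on each strand, apart from each other. Over the list, 20 of 29 promoters held them (69.0%), against 15.2% of all promoters. Replication genes were searched for TTTCCCG or TTTGGCG, letters of E2F sites, which stood in 21 of 35 promoters (60.0%) and in 6.06% of all.

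Mitosis genes lay mostly below the boiled level with the small fraction only. They were lower with boiled medium than with the large fraction in 34 of 35 cases and than with fresh medium in 34, but higher than with the small fraction in 31. Against proliferative medium 11 were lower and 0 higher. Replication genes differed from this in the last comparison, with 21 of 40 higher and 2 lower with boiled than with proliferative medium. CDK1 was at 25.3 ± 1.64 FPKM with fresh medium, 24.7 ± 0.767 with the large fraction, 22.8 ± 0.419 with proliferative medium and 14.2 ± 1.61 with the small fraction.

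Targets of NF-kB and STAT3, the factors through which cytokines such as TNF and the IL6 family act, were mostly lower when called. Among 22 inflammatory cytokines and NF-kB targets, 10 fell and 3 rose (median -0.36). Of the 12 regulators 9 fell and 0 rose, whereas of the 10 measured ligands 1 fell and 3 rose. NFKB2, a subunit of the noncanonical pathway, was at 22.1, 24.5 and 21.1 FPKM with intact medium and 13.1, 13.8 and 13.2 with boiled medium (log2 fold change -0.76 ± 0.06, adjusted p = 3.64e-13). NFKBIA, which encodes the inhibitor IkB-alpha and is named here although it was chosen after its values were seen, was at 42.2, 42.7 and 43.0 FPKM with intact medium and 30.6, 31.3 and 29.2 with boiled medium (log2 fold change -0.50 ± 0.05, adjusted p = 2.67e-10). BIRC3, an inhibitor of apoptosis, was at 1.56, 1.36 and 1.64 FPKM with intact medium and 0.707, 0.651 and 0.767 with boiled medium (log2 fold change -1.10 ± 0.17, adjusted p = 3.22e-06). The cytokine IL6 was low, at 2.86, 2.62 and 2.98 FPKM with intact medium and 2.07, 1.27 and 1.46 with boiled medium (log2 fold change -0.82 ± 0.22, adjusted p = 0.00323), and may share counts with the overlapping gene STEAP1B. CCL5 rose from 0.703, 0.432 and 0.333 to 0.831, 1.21 and 1.36 FPKM (log2 fold change 1.21 ± 0.41, adjusted p = 0.0227) but kept its call in only 2 of the 6 fits that leave out 1 library.

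Of 10 STAT3 and IL6-family response genes, 4 fell and 0 rose. SOCS3, the feedback inhibitor of these receptors, was at 9.94, 10.5 and 9.49 FPKM with intact medium and 5.20, 5.73 and 5.66 with boiled medium (log2 fold change -0.86 ± 0.11, adjusted p = 4.85e-08), and it was at 10.6 ± 0.166 FPKM with the large fraction, 10.6 ± 1.83 with the small fraction and 3.97 ± 0.416 with fresh medium. The boiled libraries thus lie below both fractions and above fresh medium. OSMR, the oncostatin M receptor, was at 22.2, 22.5 and 23.5 FPKM with intact medium and 16.4, 16.8 and 15.96 with boiled medium (log2 fold change -0.48 ± 0.04, adjusted p = 1.39e-11) and the kinase PIM1 at 11.1, 10.3 and 12.4 FPKM with intact medium and 8.17, 7.99 and 8.52 with boiled medium (log2 fold change -0.46 ± 0.08, adjusted p = 5.12e-05). OSMR may share counts with the overlapping gene RICTOR. Against fresh medium 11 of the 22 NF-kB genes were still higher with boiled medium and 0 lower, and for intact against fresh medium (18.2% of all genes higher and 15.5% lower) the numbers were 17 and 0.

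Genes of amino acid supply and of the translation machinery fell in part. ATF4 is translated when amino acids run short or the endoplasmic reticulum is stressed, and it raises amino acid transporters and synthesis enzymes. Of 31 ATF4 response genes 18 fell and 1, the chromatin-associated stress gene NUPR1, rose (median -0.30), with 7 of 9 transporters and 6 of 10 enzymes among those that fell. SLC7A11, the cystine importer, was at 1.48, 1.45 and 1.502 FPKM with intact medium and 0.592, 0.971 and 0.664 with boiled medium (log2 fold change -1.01 ± 0.14, adjusted p = 2.00e-07). CTH, which makes cysteine from cystathionine, was at 6.14, 6.06 and 5.85 FPKM with intact medium and 2.91, 3.14 and 3.72 with boiled medium (log2 fold change -0.88 ± 0.15, adjusted p = 1.13e-05), and PSAT1, an enzyme of serine synthesis, at 26.8, 25.7 and 25.7 FPKM with intact medium and 19.7, 15.99 and 15.6 with boiled medium (log2 fold change -0.62 ± 0.07, adjusted p = 1.18e-08). Of 20 cytosolic tRNA synthetases, which charge tRNAs with amino acids, 9 fell and 1 rose. The one that rose was WARS (log2 fold change 0.37 ± 0.06, adjusted p = 1.23e-06), which is also inducible by interferon and may share counts with the overlapping gene WDR25. Against fresh medium 15 of the 31 ATF4 genes were lower with boiled medium and 3 higher, and SLC7A11 was at 2.06 ± 0.171 FPKM there.

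Cytosolic ribosomal protein genes fell in 58 of 75 cases and rose in 1, by a median of -0.34, and ribosome biogenesis genes in 17 of 31 with 1 higher (-0.24). RPSA, a small subunit protein, was at 566, 580.0 and 531 FPKM with intact medium and 378, 382 and 368 with boiled medium (log2 fold change -0.57 ± 0.04, adjusted p = 2.65e-15), and RPL9, a large subunit protein, at 89.4, 89.99 and 80.5 FPKM with intact medium and 55.7, 53.4 and 54.8 with boiled medium (log2 fold change -0.67 ± 0.08, adjusted p = 5.23e-06). Ribosomal protein genes are short, and length moved with this comparison: among genes with at least 50 counts the median log2 fold change was -0.109 among the shortest, -0.0252 among those of middle length and 0.0445 among the longest, in 3 classes of equal size. After correction of each library for GC content and length these medians were -0.0379, -0.0289 and -0.0245, and the ribosomal list had 58 lower and 1 higher, with a median of -0.30. The share of the length trend in single genes was not tested. Ribosomal protein genes were lower with the large fraction than with intact medium in 64 of 75 cases (8.14% of all genes higher and 10% lower) and with the small fraction in 62 (19.9% and 22.7%). Between boiled medium and the large fraction their median differed by 0.11, with 19 of 75 higher and 0 lower.

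Mitochondrial and nuclear genes of the respiratory chain differed in the direction of most calls. Of the 13 protein genes encoded in mitochondrial DNA, 12 rose and 0 fell (median 0.46), while 17 of 44 nuclear genes of the respiratory chain fell and 1 rose (median -0.14). Mitochondrially encoded genes took 5.84% to 5.95% of all counts with boiled and 4.09% to 4.79% with intact medium, so the groups do not overlap. MT-ND5, a subunit of complex I, was at 1123, 1131 and 1224 FPKM with intact medium and 1841, 1889 and 1874 with boiled medium (log2 fold change 0.68 ± 0.04, adjusted p = 3.33e-18). Among the nuclear genes, CYCS, the electron carrier cytochrome c, was at 40.5, 41.1 and 40.2 FPKM with intact medium and 32.9, 29.3 and 31.3 with boiled medium (log2 fold change -0.39 ± 0.05, adjusted p = 1.73e-08). With library totals in place of TMM factors the nuclear genes that fell numbered 10 of 44. After the GC and length correction 13 of them fell and 2 rose. Proteasome genes fell in 13 of 30 cases and rose in 0, with PSMB5, a catalytic subunit, at 86.0, 80.5 and 73.2 FPKM with intact medium and 59.0, 58.9 and 62.2 with boiled medium (log2 fold change -0.42 ± 0.06, adjusted p = 2.51e-06).

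**Figure D4:**
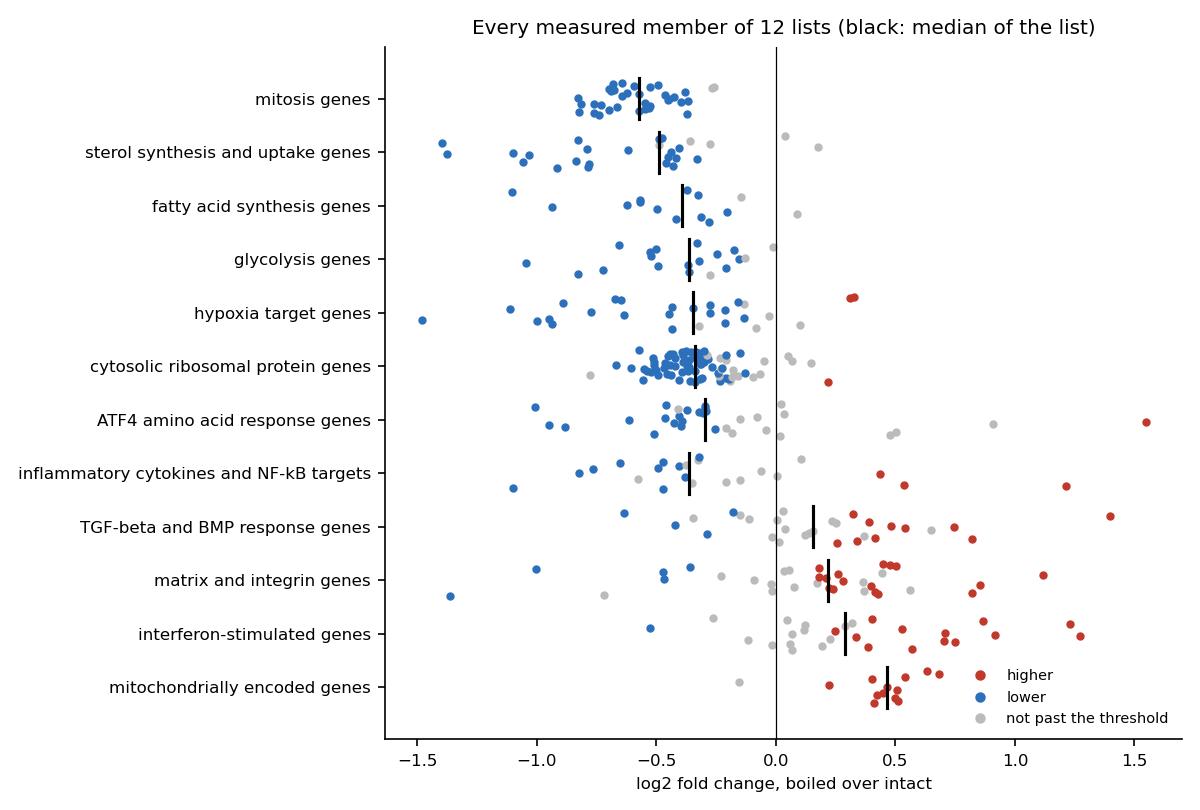
Each point is the log2 fold change of boiled over intact medium for 1 measured member of 12 lists (red higher, blue lower, grey not past an adjusted p of 0.05), and black bars are list medians. Mitosis genes lie close together around -0.57, whereas matrix and integrin genes spread from -1.36 to 1.12.

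Matrix and integrin genes changed in both directions. Of 34 measured, 16 rose and 5 fell: 6 of 12 collagens, 5 of 11 laminins and other matrix proteins and 5 of 11 integrins rose. FN1, fibronectin, was at 381, 381 and 396 FPKM with intact medium and 700.4, 713 and 684 with boiled medium (log2 fold change 0.85 ± 0.03, adjusted p = 1.14e-27). COL1A1, a chain of type I collagen, was at 121, 120.0 and 115 FPKM with intact medium and 209, 212 and 210.2 with boiled medium (log2 fold change 0.82 ± 0.04, adjusted p = 2.98e-22), and ITGB4, an integrin chain of hemidesmosomes, at 79.3, 74.9 and 73.9 FPKM with intact medium and 159.6, 168 and 169 with boiled medium (log2 fold change 1.12 ± 0.04, adjusted p = 1.47e-26). COL12A1 (ENSG00000111799, chr6:75084326-75206051, minus strand), a fibril-associated collagen, went the other way with 18.7, 18.4 and 19.3 FPKM with intact medium and 7.31, 7.08 and 7.62 with boiled medium (log2 fold change -1.36 ± 0.05, adjusted p = 4.74e-25). So did LAMB3, a chain of laminin-332, with 11.4, 10.3 and 10.9 FPKM with intact medium and 5.64, 5.25 and 5.39 with boiled medium (log2 fold change -1.01 ± 0.09, adjusted p = 5.15e-12). In all 5 genes the boiled and intact libraries are far apart compared with their spread.

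TGFBI (ENSG00000120708, chr5:136028895-136063818, plus strand), a secreted matrix protein named for its induction by TGF-beta, had the smallest p value of all genes. It was at 137, 136 and 139 FPKM with intact medium and 367, 362 and 360.4 with boiled medium (log2 fold change 1.40 ± 0.03, adjusted p = 1.20e-33). Every other medium was also above intact medium, with 337 ± 8.04 FPKM with the large fraction, 265 ± 1.53 with the small fraction, 285 ± 3.62 with fresh and 300.1 ± 3.81 with proliferative medium. Of 29 TGF-beta and BMP response genes 10 rose and 4 fell (median 0.16). LTBP3, which holds latent TGF-beta in the matrix, rose from 39.4, 40.2 and 38.3 to 64.4, 66.8 and 66.7 FPKM (log2 fold change 0.74 ± 0.04, adjusted p = 3.87e-19). TGFBR3, a co-receptor, fell from 2.78, 2.94 and 3.52 to 1.88, 2.17 and 1.92 FPKM (log2 fold change -0.64 ± 0.10, adjusted p = 4.12e-06).

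Genes of pericellular proteolysis (proteases, a receptor and inhibitors) were mixed, with 3 of 15 higher and 7 lower. MMP1 (ENSG00000196611, chr11:102789920-102798160, minus strand), the interstitial collagenase, was at 22.2, 23.1 and 19.4 FPKM with intact medium and 7.68, 9.22 and 7.95 with boiled medium (log2 fold change -1.39 ± 0.10, adjusted p = 3.91e-15). It stood at 23.4 ± 1.28 FPKM with the large fraction, 8.20 ± 0.845 with fresh medium, 6.39 ± 1.08 with the small fraction and 4.93 ± 0.284 with proliferative medium, so that intact medium and the large fraction are high and the others low. Between boiled and fresh medium its log2 difference was 0.00 ± 0.10, adjusted p = 0.980. PLAU, urokinase, rose from 42.0, 42.0 and 37.9 to 62.5, 62.9 and 62.9 FPKM (log2 fold change 0.62 ± 0.05, adjusted p = 2.39e-12) and was highest with boiled medium among the 6 media. Proliferative medium came next with 44.7 ± 0.429 FPKM.

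Keratins and YAP targets held falls only among their calls: 10 of 12 keratins (median -0.48) and 11 of 19 YAP targets (median -0.23). With a minimum mean level of 1 FPKM, 6 keratins were called. KRT7, a keratin of simple epithelia, was at 92.3, 96.4 and 91.8 FPKM with intact medium and 62.1, 63.4 and 70.5 with boiled medium (log2 fold change -0.52 ± 0.05, adjusted p = 1.97e-12), and KRT17, a keratin of basal and stressed epithelium, at 17.6, 17.3 and 16.3 FPKM with intact medium and 8.32, 9.44 and 9.08 with boiled medium (log2 fold change -0.94 ± 0.08, adjusted p = 2.63e-12). IGFBP3, which binds insulin-like growth factors, was at 22.4, 22.2 and 24.6 FPKM with intact medium and 11.6, 11.0 and 11.7 with boiled medium (log2 fold change -1.02 ± 0.06, adjusted p = 1.75e-18). F3, tissue factor, was at 119.6, 116 and 127 FPKM with intact medium and 71.9, 74.4 and 75.1 with boiled medium (log2 fold change -0.72 ± 0.04, adjusted p = 1.75e-18), and the transcription factor TEAD4, through which YAP binds DNA, at 26.7, 27.4 and 28.0 FPKM with intact medium and 18.3, 17.3 and 18.3 with boiled medium (log2 fold change -0.61 ± 0.07, adjusted p = 6.25e-10). Epithelial and mesenchymal genes gave 2 of 21 higher and 6 lower, FN1 and SNAI2 (log2 fold change 0.42 ± 0.10, adjusted p = 0.00142) being the ones that rose. Of the 10 mesenchymal genes measured, 2 rose and 4 fell, and of the 11 epithelial ones 0 rose and 2 fell. Without boiled replicate 3, 2 of the 21 were lower.

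Among the early response genes, 7 of 26 rose and 6 fell. EGR1, a zinc-finger factor induced within minutes by growth factors, was at 12.2, 11.7 and 13.7 FPKM with intact medium and 32.9, 35.0 and 35.1 with boiled medium (log2 fold change 1.45 ± 0.06, adjusted p = 4.57e-23). It was at 30.6 ± 1.07 FPKM with the large fraction, 26.0 ± 0.965 with fresh medium, 16.6 ± 0.375 with the small fraction and 14.5 ± 1.23 with proliferative medium. KLF4, a factor of epithelial differentiation and pluripotency, was at 2.96, 2.66 and 2.88 FPKM with intact medium and 5.34, 5.22 and 5.53 with boiled medium (log2 fold change 0.92 ± 0.11, adjusted p = 1.19e-08). DUSP1, a phosphatase that switches off MAP kinases, went down with 73.5, 74.4 and 67.1 FPKM with intact medium and 42.5, 42.4 and 39.3 with boiled medium (log2 fold change -0.80 ± 0.06, adjusted p = 2.35e-14). MAFF, a small MAF protein, fell from 7.74, 7.50 and 8.13 to 3.99, 4.47 and 4.96 FPKM (log2 fold change -0.80 ± 0.09, adjusted p = 8.37e-09), and may share counts with the overlapping gene PLA2G6. Genes driven by ERK signalling were mixed, with 4 of 20 higher and 5 lower. The cytokine IL11 was at 7.84, 8.27 and 6.42 FPKM with intact medium and 4.88, 4.51 and 4.70 with boiled medium (log2 fold change -0.68 ± 0.13, adjusted p = 1.59e-04).

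Aryl hydrocarbon receptor genes rose in 4 of 7 cases and fell in 0, and the receptor and its partner did not pass the test. This receptor binds tryptophan metabolites and planar aromatic compounds. CYP1B1, a cytochrome P450 it induces, was at 3.28, 3.25 and 3.52 FPKM with intact medium and 9.10, 8.22 and 7.85 with boiled medium (log2 fold change 1.32 ± 0.08, adjusted p = 4.99e-17), and AHRR, its repressor, at 1.36, 1.41 and 1.12 FPKM with intact medium and 2.93, 3.26 and 3.38 with boiled medium (log2 fold change 1.30 ± 0.11, adjusted p = 3.69e-13). Both genes were lowest with intact medium among the 6 media, AHRR at 4.05 ± 0.321 FPKM with fresh medium, 4.50 ± 0.251 with the small and 4.10 ± 0.259 with the large fraction. AHRR may share counts with the overlapping gene PDCD6.

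Metallothioneins bind zinc and copper and are induced by zinc through MTF1. Of 5 measured metal-binding genes 4 rose and 0 fell, and of 2 zinc transporters 1 rose and 1 fell. MT1E was at 54.4, 54.9 and 69.8 FPKM with intact medium and 100.1, 96.7 and 125 with boiled medium (log2 fold change 0.84 ± 0.11, adjusted p = 2.07e-05), MT1M at 3.88, 2.98 and 5.08 FPKM with intact medium and 6.73, 10.6 and 10.7 with boiled medium (log2 fold change 1.23 ± 0.27, adjusted p = 0.00151) and MT1X at 4.84, 5.31 and 3.59 FPKM with intact medium and 7.44, 8.21 and 12.9 with boiled medium (log2 fold change 1.07 ± 0.21, adjusted p = 5.82e-04). The zinc exporter SLC30A1 was at 1.24, 1.29 and 1.13 FPKM with intact medium and 1.70, 2.02 and 2.32 with boiled medium (log2 fold change 0.73 ± 0.12, adjusted p = 8.85e-06). In MT1X the boiled replicate 3 is higher than the other two, and all boiled libraries exceed all intact ones. Near-identical family members can share reads, so single metallothioneins are uncertain. The MT1X promoter, picked after the sequences had been seen, is shown because it holds TGCACNC or TGCGCNC, the letters of a metal response element. Its 4 matches on either strand are in capitals.
MT1X promoter (chr16:56682220-56682519, plus strand): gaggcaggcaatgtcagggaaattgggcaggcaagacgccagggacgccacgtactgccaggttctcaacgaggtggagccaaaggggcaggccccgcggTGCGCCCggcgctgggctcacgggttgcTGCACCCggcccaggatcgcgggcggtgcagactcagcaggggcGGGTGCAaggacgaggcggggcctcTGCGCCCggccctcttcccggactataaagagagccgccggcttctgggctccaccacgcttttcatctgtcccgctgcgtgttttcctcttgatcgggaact
These letters stood in 3 of the 4 promoters of the list in the table and in 29.6% of all promoters. MT2A holds 8 matches, SLC30A1 2 and SLC39A10 0. MT1E was at 161 ± 10.2 FPKM with the large fraction, 191 ± 1.247 with proliferative medium, 40.7 ± 4.25 with the small fraction and 31.7 ± 1.92 with fresh medium, and the boiled libraries lie between these pairs.

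Interferon-stimulated genes rose in 13 of 27 cases and fell in 1 (median 0.29). IFIT2, an RNA-binding antiviral protein, was at 4.59, 4.14 and 4.32 FPKM with intact medium and 9.97, 11.0 and 10.6 with boiled medium (log2 fold change 1.27 ± 0.09, adjusted p = 1.42e-15), and may share counts with the overlapping gene LIPA. OASL, an antiviral protein related to oligoadenylate synthetases, was at 4.25, 4.48 and 4.33 FPKM with intact medium and 8.45, 7.15 and 8.28 with boiled medium (log2 fold change 0.87 ± 0.10, adjusted p = 3.72e-09), and IFI44 at 26.0, 24.3 and 25.0 FPKM with intact medium and 42.3, 44.2 and 40.6 with boiled medium (log2 fold change 0.75 ± 0.06, adjusted p = 5.70e-13). The large fraction gave a level near intact medium for IFIT2, at 4.25 ± 0.459 FPKM, while the small fraction gave 8.76 ± 0.269, proliferative medium 13.4 ± 0.332 and fresh medium 2.68 ± 0.139. Over the list, 16 of 27 were higher with boiled medium than with the large fraction and 0 lower, and 19 were higher and 1 lower than with fresh medium. Against proliferative medium 3 were higher and 8 lower. MHC class I genes gave 5 of 17 higher and 1 lower, and 9 higher after the GC and length correction. Complement genes gave 5 of 17 higher and 3 lower, with SERPING1, the C1 inhibitor, at 8.19, 7.95 and 9.28 FPKM with intact medium and 14.3, 13.0 and 12.6 with boiled medium (log2 fold change 0.64 ± 0.08, adjusted p = 6.77e-09) and the shield protein CD55 at 2.63, 2.63 and 2.52 FPKM with intact medium and 1.56, 1.56 and 1.60 with boiled medium (log2 fold change -0.72 ± 0.12, adjusted p = 9.66e-06).

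The named rises and falls of largest size included several membrane proteins. ABCC3 (ENSG00000108846, chr17:50634777-50692252, plus strand), an exporter of conjugated compounds that is also counted among NRF2 targets, rose most among the protein-coding genes of at least 1 FPKM in the mean of either group, from 0.539, 0.510 and 0.459 to 2.00, 2.04 and 2.02 FPKM (log2 fold change 2.00 ± 0.12, adjusted p = 6.64e-17). The NRF2 targets, ABCC3 included, were mixed, with 4 of 23 higher and 7 lower, with 3 lower when library totals replaced TMM and 4 lower without intact replicate 2. AFAP1L2, an adaptor of SRC signalling, was at 1.81, 1.83 and 1.97 FPKM with intact medium and 5.89, 6.18 and 5.89 with boiled medium (log2 fold change 1.67 ± 0.10, adjusted p = 6.48e-18). VIPR1, a receptor of vasoactive intestinal peptide, was at 1.251, 1.32 and 1.60 FPKM with intact medium and 3.98, 3.60 and 4.25 with boiled medium (log2 fold change 1.502 ± 0.10, adjusted p = 8.60e-16), and STRA6, the receptor that imports vitamin A, at 0.510, 0.603 and 0.713 FPKM with intact medium and 1.69, 1.62 and 1.79 with boiled medium (log2 fold change 1.48 ± 0.12, adjusted p = 9.06e-13). SIGLEC15, a sialic acid-binding receptor, stood at 0.905, 0.854 and 0.963 FPKM with intact medium and 2.44, 3.67 and 3.24 with boiled medium (log2 fold change 1.77 ± 0.20, adjusted p = 4.14e-09). FAM198B was at 0.709, 0.946 and 0.855 FPKM with intact medium and 2.92, 3.29 and 3.09 with boiled medium (log2 fold change 1.88 ± 0.11, adjusted p = 1.62e-17), and fresh medium gave 4.68 ± 0.123 FPKM. HIST1H3B and TAC4 also ranked among the 14 largest rises, but HIST1H3B kept its call in 3 and TAC4 in 2 of 6 fits that leave out 1 library, and the groups of TAC4 overlap.

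WISP2 fell most among these genes, and every boiled library lay well below every intact one. It encodes a secreted protein of the CCN family and was at 2.35, 3.04 and 2.29 FPKM with intact medium and 0.596, 0.479 and 0.524 with boiled medium (log2 fold change -2.26 ± 0.19, adjusted p = 7.20e-13). KISS1, the precursor of kisspeptin, was at 29.1, 30.1 and 21.5 FPKM with intact medium and 8.46, 9.92 and 12.2 with boiled medium (log2 fold change -1.39 ± 0.16, adjusted p = 3.02e-09). GFRA1, a receptor of the neurotrophic factor GDNF, was at 1.06, 1.38 and 1.15 FPKM with intact medium and 0.484, 0.430 and 0.449 with boiled medium (log2 fold change -1.40 ± 0.16, adjusted p = 2.75e-09), and ITGB2, an integrin chain better known from leukocytes, at 1.18, 1.30 and 0.964 FPKM with intact medium and 0.513, 0.360 and 0.377 with boiled medium (log2 fold change -1.47 ± 0.21, adjusted p = 3.59e-07). IGFBP1, which binds insulin-like growth factors, was low throughout, at 1.21, 1.19 and 0.800 FPKM with intact medium and 0.276, 0.481 and 0.471 with boiled medium (log2 fold change -1.36 ± 0.38, adjusted p = 0.00598). With the small fraction WISP2 was at 2.90 ± 0.336 FPKM and with the large fraction at 1.06 ± 0.0785.

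Growth and survival lists held smaller numbers of calls, to be read beside the 11.2% higher and 14.7% lower over all tested genes. Purine and pyrimidine synthesis genes fell in 10 of 17 cases and rose in 0 (6 fell without intact replicate 2 or without boiled replicate 3), and polyamine genes fell in 5 of 10 and rose in 1. ODC1, which starts polyamine synthesis, was at 27.9, 28.9 and 26.8 FPKM with intact medium and 16.4, 15.4 and 15.3 with boiled medium (log2 fold change -0.84 ± 0.07, adjusted p = 7.27e-13), and CTPS1, which makes CTP, at 7.12, 6.88 and 7.07 FPKM with intact medium and 4.87, 4.71 and 4.75 with boiled medium (log2 fold change -0.56 ± 0.06, adjusted p = 3.06e-10). Of 20 p53 targets 5 fell (3 without intact replicate 2) and 2 rose, with GADD45A, a growth arrest gene, at 41.0, 42.1 and 32.1 FPKM with intact medium and 24.5, 24.8 and 25.0 with boiled medium (log2 fold change -0.64 ± 0.09, adjusted p = 4.26e-06). BCL2 family genes gave 3 of 15 higher and 4 lower. The lower ones numbered 2, 1 and 7 without intact replicate 1, 2 or 3. Of the 11 death genes measured, 3 rose and 3 fell, and of the 4 survival genes 0 rose and 1 fell. BMF and BCL2L11, both BH3-only genes that promote apoptosis, were among those that rose. BMF was at 5.06, 4.90 and 4.72 FPKM with intact medium and 9.64, 9.34 and 9.97 with boiled medium (log2 fold change 0.98 ± 0.07, adjusted p = 2.65e-15) and BCL2L11, which overlaps MIR4435-2HG, at 4.34, 4.50 and 4.33 FPKM with intact medium and 6.75, 7.14 and 6.72 with boiled medium (log2 fold change 0.64 ± 0.07, adjusted p = 8.43e-10). In both genes all boiled libraries exceed all intact ones.

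Wnt pathway genes gave 6 of 21 higher and 3 lower, beside 11.2% and 14.7% of all tested genes, and both measured inhibitors fell. The number higher was 2 without intact replicate 1 or 2 or boiled replicate 1 or 3, and 3 without boiled replicate 2. DKK1, a secreted Wnt inhibitor, was at 48.2, 48.7 and 42.6 FPKM with intact medium and 28.1, 25.3 and 24.9 with boiled medium (log2 fold change -0.84 ± 0.07, adjusted p = 7.62e-13). CD24, a surface glycoprotein counted among 11 stem-like markers, of which 2 rose (1 without intact replicate 1 or boiled replicate 2 or 3) and 1 fell, was at 303, 319 and 317 FPKM with intact medium and 209, 197 and 199 with boiled medium (log2 fold change -0.64 ± 0.04, adjusted p = 1.78e-17). Secretome genes of senescence measured in the receiving cells gave 2 of 12 higher (4 without intact replicate 3) and 3 lower, with HMGB2, a chromatin protein lost in senescence, at 99.1, 97.4 and 97.2 FPKM with intact medium and 64.4, 66.0 and 71.4 with boiled medium (log2 fold change -0.55 ± 0.04, adjusted p = 9.73e-14). TFRC, the transferrin receptor, was at 12.7, 13.1 and 12.6 FPKM with intact medium and 8.28, 8.55 and 8.39 with boiled medium (log2 fold change -0.61 ± 0.05, adjusted p = 2.85e-12) among 10 iron genes with 1 higher and 2 lower (1 lower without intact replicate 3 or boiled replicate 2). Retinoid and vitamin D genes rose in 3 of 9 cases and fell in 0, STRA6, RARRES3 (log2 fold change 1.47 ± 0.23, adjusted p = 2.88e-06) and DHRS3 (log2 fold change 0.37 ± 0.07, adjusted p = 4.91e-05).

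Cytosolic heat shock proteins gave 4 of 19 higher and 6 lower (median -0.04), and the chaperone HSP90AA1 was at 409, 405 and 400.0 FPKM with intact medium and 312, 307 and 301 with boiled medium (log2 fold change -0.40 ± 0.04, adjusted p = 2.86e-12). The list's median turned to 0.006 when library totals replaced TMM. Endoplasmic reticulum chaperones and stress genes gave 4 of 21 higher and 1 lower, and lysosome and autophagy genes 4 of 32 higher and 3 lower (8 higher with library totals). Over all tested genes 11.2% were higher and 14.7% lower. The lysosome and autophagy list lay near these shares, with 12.5% and 9.38%. Fatty acid oxidation and PPAR targets gave 3 of 14 higher (1 without intact replicate 1) and 2 lower, with PLIN2, which coats lipid droplets, at 24.6, 24.2 and 26.7 FPKM with intact medium and 18.4, 19.2 and 17.6 with boiled medium (log2 fold change -0.46 ± 0.05, adjusted p = 5.68e-09). Among 6 receptors for serum lipid and albumin 1 rose and 2 fell, and SCARB1, the receptor for high-density lipoprotein, was at 18.7, 18.7 and 18.3 FPKM with intact medium and 13.7, 13.4 and 13.8 with boiled medium (log2 fold change -0.46 ± 0.05, adjusted p = 2.48e-09). Glucocorticoid and FOXO responsive genes gave 4 of 16 higher and 4 lower (2 lower with a minimum mean of 1 FPKM).

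**Figure D5:**
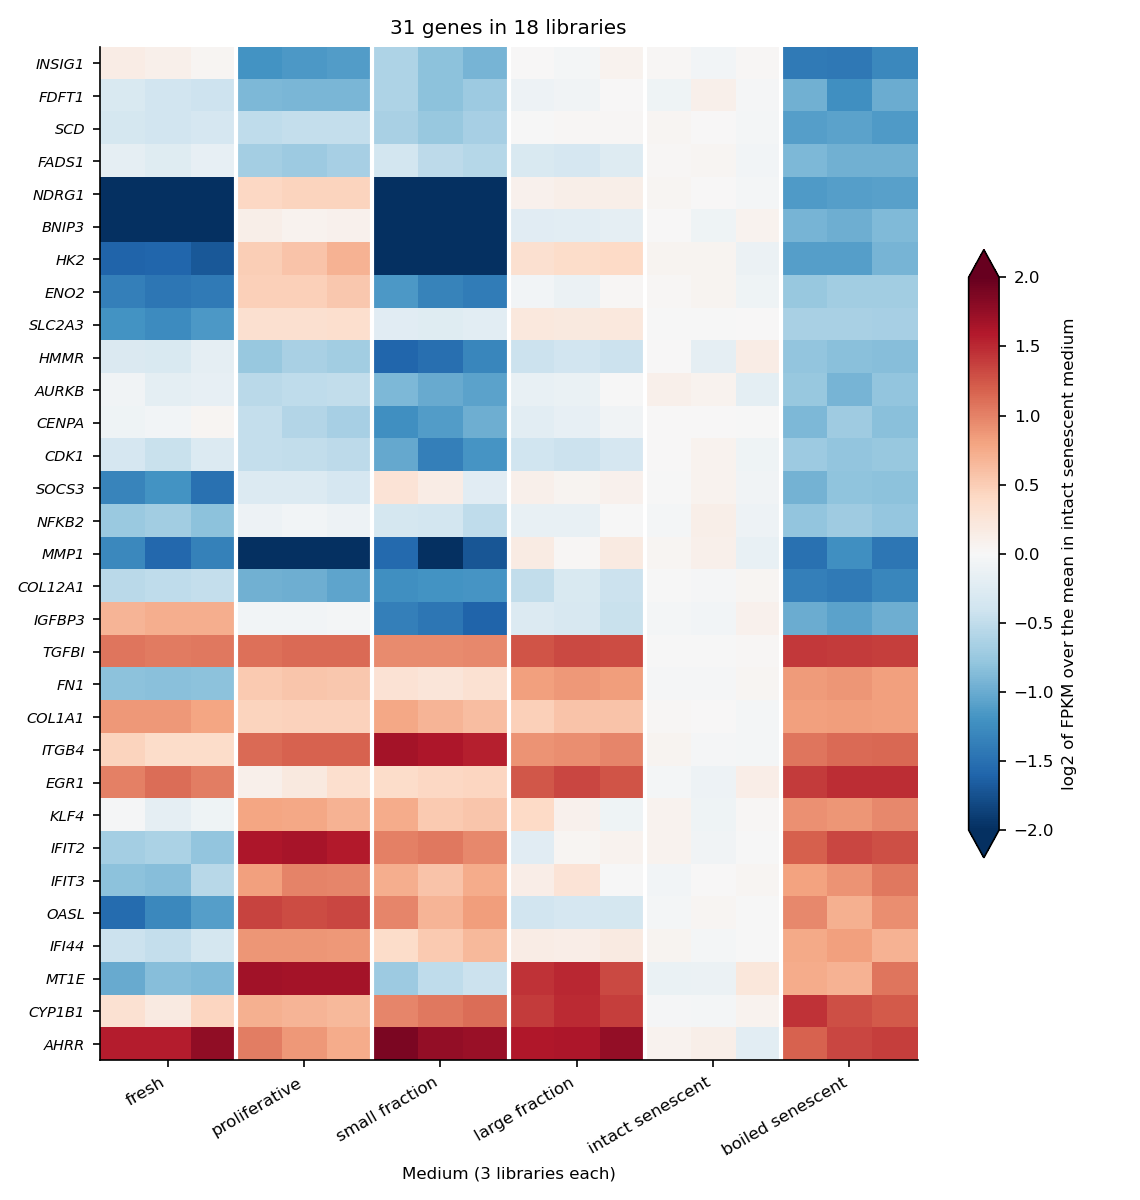
Colours give the log2 of FPKM over the mean in intact senescent medium for 31 genes (rows) in 18 libraries of 6 media (columns), with the scale ending at 2 either way. Boiled medium shares the low NDRG1, BNIP3 and HK2 of the small fraction only in part and shows a low MMP1, as do fresh and proliferative medium and the small fraction. TGFBI and CYP1B1 are lowest with intact medium among the 6 media. EGR1 is high with boiled medium, the large fraction and fresh medium.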

How the data were processed

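RNA-seq libraries of OVCAR8 cells were grouped by title, and boiled (3) was compared with intact senescent medium (3). Members and gene lists were chosen with earlier results of these data known. The authors deposited counts and FPKM per gene. Per the submitters' processing notes, STAR 2.6.1, DESeq2 2 and GRCh38 were used. The read counter, the strand setting and the origin of the FPKM gene lengths were not given in the sources used here. Counts of all 24 libraries were fitted with 1 mean per group in edgeR 4.0.16 (R 4.3.3, quasi-likelihood, robust, TMM scaling, filterByExpr, 19210 of 58735 genes kept, 16 residual degrees of freedom, biological coefficient of variation 0.0638), with Benjamini-Hochberg adjustment and a threshold of 0.05. The steps were tested on simulated data. FPKM values are shown as deposited, means ± SD with n = 3. Columns of samples outside the series numbered 0. Named genes are the 14 largest rises and falls (protein-coding and at 1 FPKM or more in either group's mean) and up to 4 members of each list with the largest changes. IDI1, SREBF2, MVD, LDHA, ANLN and CDC20 were added as list members with the smallest p values, and NFKBIA after its values were seen. Some genes that the rule names are not reported here. Promoters came from RefSeq (GRCh38.p14). Motifs were also searched in lists whose promoters are not shown. TTGCATC stood in 1 of 26 ATF4 response promoters (3.85%, against 2.4% of all promoters). CAGACA stood in 4 of 25 TGF-beta and BMP promoters (16.0%, against 16.9%). The shares were 83.3% for GCGTG in aryl hydrocarbon receptor genes (36.5% of all) and 33.3% for GGAATG in YAP targets (14.0%). For TTCNNGA in cytosolic heat shock genes the share was 50.0% (33.5%). Alternatives were other scalings and filters, DESeq2 1.42.0, limma 3.58.1 on log2(FPKM + pseudocount), a GC and length correction, a replicate block and leaving out each library. Groups of 3 were not tested for outliers.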

Additional observations from a re-analysis of the deposited data

How the results depend on the processing

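No called gene was called in the opposite direction under the 18 alternatives run. Lists whose medians near 0 changed sign under at least 1 of them included the early response, heat shock, iron, PPAR, senescence secretome and lipid receptor lists. With a mean FPKM of at least 1 required, genes changed beyond 1 on the log2 scale numbered 86 higher and 70 lower, in place of 293 and 164. With limma on log2(FPKM + 1) they numbered 27 and 28, and on log2(FPKM + 0.1) 193 were higher. These scales test fewer low genes or shrink their changes by construction. Leaving out 1 library at a time gave 1628 to 2001 genes higher and 2284 to 2695 lower, and beyond 1 230 to 271 higher and 130 to 161 lower. Each of these fits kept 75.7% to 82.5% of the 4978 calls, and 2901 genes kept their call in all 6. Samples with the same replicate number showed no common deviation (correlations -0.115, 0.0275 and -0.138). These values cannot decide whether the numbers pair samples, because trends with GC content and length differ between libraries. The replicate block gave 2128 higher and 2784 lower. The GC and length correction gave 2187 and 3196. Genes with few counts, such as IGFBP1 and CA9, are limited by depth, and intervals cover the spread between these libraries only.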
